A study of Mus musculus with 6 samples.

Results

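Histone acetylation writers, erasers and a corepressor were described by the H3K27ac peaks that name them in mouse quadriceps. The 10 genes were the acetyltransferase genes Ep300, Crebbp, Kat2a and Kat2b, the deacetylase genes Hdac1, Hdac2, Hdac3, Sirt1 and Sirt3, and the corepressor gene Ncor1. Every row of the 2 peak tables whose gene name was a member was taken, whether at the promoter or distal. This gave 51 of 87709 listed peaks, 30 of 46988 in control and 21 of 40721 in detrained mice. Of the members, 9 had a row in at least 1 table, and Kat2a had none.

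H3K27ac ChIP-seq reads the acetylation of histone H3 at lysine 27, a mark of active promoters and enhancers, by precipitating chromatin with an antibody and sequencing the DNA. All mice were wild-type males. The H3K27ac samples carry the strain label C57BL/6, and the inputs carry C57BL/7 and C57BL/8. The control group was sedentary. The detrained group had running wheels for 4 weeks from 8 weeks of age, and the wheels were taken away 72 hours before harvest. Each group had 2 H3K27ac libraries, each from the quadriceps of 1 animal, and 1 library titled as input, chromatin taken as not precipitated, although its labels name the H3K27ac antibody too. The tables name the control libraries C2 and C3 and the detrained libraries Ex1 and Ex2. The labels number the control libraries differently, so C2 and C3 were assigned to the control group and not to a numbered sample. The comparison asks how the mark stood near these genes after running and a rest. Mice harvested at the end of running were not analysed here, so a difference cannot be divided between the running and the rest.

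Ep300 and Crebbp encode the paralogous coactivators p300 and CBP, the acetyltransferases that place acetyl groups on H3 lysine 27. Kat2a and Kat2b encode GCN5 and PCAF, paralogous acetyltransferases known mainly for acetylating H3 lysine 9. Hdac1, Hdac2 and Hdac3 encode zinc-dependent class I deacetylases, and Sirt1 and Sirt3 encode deacetylases that consume NAD, the first mainly nuclear and the second mitochondrial. Ncor1 encodes a scaffold that brings HDAC3 to nuclear receptors, and in muscle it is known as a repressor of oxidative genes. The values below describe the mark at the genes of this machinery, not the amount or activity of the enzymes.

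Between 20805019 and 22400894 tags were mapped per H3K27ac library, and the control input, with 10812470 tags, was shallower than the detrained input, with 21298438. The labelled tissue was checked with marker genes. Of 10 skeletal muscle fibre genes 9 had a peak in each table, all but Tnnt3, and of the genes of other tissues Alb, Neurod1 and Krt5 had none, while Ins2 had 1 in detrained mice. The densest peaks of the fibre genes summed to 600.0 and 748.0 tags per kb in control and to 804.6 and 768.4 in detrained mice. The gene that differed most was Myh4, at 25.4 and 28.5 in control, with 3 rows, against 79.3 and 76.7 in detrained mice, with 1. Leukocyte genes had a peak for 2 of 4 genes in control and 3 of 4 in detrained mice, the difference being Ptprc. Their summed density was 51.1 and 41.2 against 86.0 and 66.7, with Ptprc, at 36.3 and 22.5, in the detrained sums only. The 2 genes listed in both groups overlapped between them. Adgre1 stood at 23.3 and 20.4 against 22.9 and 21.5, and Csf1r at 27.8 and 20.8 against 26.7 and 22.7. All 5 endothelial genes had a peak in both tables, at sums of 141.9 and 201.6 against 231.6 and 171.2, and of 3 adipocyte genes Lep alone had one, in control mice. The 3 satellite cell genes overlapped between groups, at sums of 80.3 and 80.8 against 73.4 and 85.6. Besides the fibre and leukocyte sums, those of the 4 fibroblast genes did not overlap, at 177.8 and 181.2 against 190.4 and 203.7. Nor did those of the 2 smooth muscle genes, at 68.4 and 81.9 against 66.4 and 62.1. The part of these differences in the results below was not tested. In whole muscle, fewer cells carrying a mark and less mark per cell cannot be told apart.

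The start regions of the members varied widely in base composition, which the choice of peaks did not use. RefSeq promoter windows of the GRCm38.p6 build, from 250 bases before to 50 after a start site, were found for 8 members, 11 windows in all, and for Hdac1 and Hdac3 none was used. The members' windows had a median GC share of 64.7%, against 52.7% over all 32851 promoter windows. The observed count of CpG over the count that the C and G content predicts had a median of 0.825 in the members and 0.384 over all windows. The Crebbp window was 82% GC, the highest of the members, and the upstream Ncor1 window and the Ep300 window were each 72.3% GC. Kat2b at 47% (first start) and 48.3% (second start) and Kat2a at 54.3% had less GC, and the second Ncor1 start, inside the gene, had the least at 38.3%.

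Of the motif letters searched on both strands, the SP1 letters GGGCGG were in 6 of the 11 member windows and in 35.7% of all windows. The NFY letters CCAAT were in 2 of 11, against 37.4%, and the ETS letters CCGGAAG in 2, against 8.86%. The AP-1 letters TGANTCA were in the first Kat2b window only, against 7.81% of all windows, and the E-box letters CACGTG in the Sirt1 window only, against 7.15%. No member window held the NRF1 letters GCGCATGC, which were in 2.71% of all windows, the CRE letters TGACGTCA, in 1.79%, or the ERR letters TCAAGGTCA, in 0.423%. These are matches of letters and not tested sites, and the SP1 letters can overlap each other.

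The windows below are printed 5′ to 3′ on the strand of the gene, with every motif match in capitals. Ep300 and Crebbp are shown as paralogs of which Crebbp had a longer start peak in detrained mice and Ep300 a slightly shorter one, Kat2a and Kat2b as paralogs at the low end and in the middle of the members' densities, Sirt1 for its 7 SP1 and 2 E-box matches, and Ncor1 for the densest start peak in control mice.
Ep300, chr15:81585964-81586263, plus strand: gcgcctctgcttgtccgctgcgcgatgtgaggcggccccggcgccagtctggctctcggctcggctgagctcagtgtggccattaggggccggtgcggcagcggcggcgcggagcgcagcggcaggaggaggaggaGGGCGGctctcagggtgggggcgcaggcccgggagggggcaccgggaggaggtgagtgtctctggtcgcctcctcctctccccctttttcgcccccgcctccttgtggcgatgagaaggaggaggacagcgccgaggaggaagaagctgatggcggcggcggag
Crebbp, chr16:4213355-4213654, minus strand: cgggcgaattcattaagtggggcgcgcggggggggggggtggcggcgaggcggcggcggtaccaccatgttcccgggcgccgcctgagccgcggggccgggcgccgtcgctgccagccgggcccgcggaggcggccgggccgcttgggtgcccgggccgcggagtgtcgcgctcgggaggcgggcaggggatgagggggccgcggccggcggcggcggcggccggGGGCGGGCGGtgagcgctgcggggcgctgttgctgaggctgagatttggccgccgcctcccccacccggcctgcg
Kat2a, chr11:100712418-100712717, minus strand: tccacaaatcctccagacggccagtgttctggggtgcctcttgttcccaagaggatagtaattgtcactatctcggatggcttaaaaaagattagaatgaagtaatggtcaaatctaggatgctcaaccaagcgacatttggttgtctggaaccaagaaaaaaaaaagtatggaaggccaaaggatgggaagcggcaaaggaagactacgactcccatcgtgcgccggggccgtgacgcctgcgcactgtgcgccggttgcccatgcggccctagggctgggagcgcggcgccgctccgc
Kat2b, chr17:53566721-53567020, plus strand: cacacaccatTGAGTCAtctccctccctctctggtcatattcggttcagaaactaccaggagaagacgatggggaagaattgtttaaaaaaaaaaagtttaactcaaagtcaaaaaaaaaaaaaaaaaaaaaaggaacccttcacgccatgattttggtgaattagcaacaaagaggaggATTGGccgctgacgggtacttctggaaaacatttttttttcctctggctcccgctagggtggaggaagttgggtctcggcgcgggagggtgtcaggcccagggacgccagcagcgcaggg
Sirt1, chr10:63338986-63339285, minus strand: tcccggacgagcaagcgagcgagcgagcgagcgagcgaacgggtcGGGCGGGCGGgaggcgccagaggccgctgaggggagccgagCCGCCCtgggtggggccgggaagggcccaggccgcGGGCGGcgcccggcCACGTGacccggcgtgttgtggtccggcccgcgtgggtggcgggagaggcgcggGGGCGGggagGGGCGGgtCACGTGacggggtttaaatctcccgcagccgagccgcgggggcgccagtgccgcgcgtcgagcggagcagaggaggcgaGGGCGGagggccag
Ncor1, chr11:62457283-62457582, minus strand: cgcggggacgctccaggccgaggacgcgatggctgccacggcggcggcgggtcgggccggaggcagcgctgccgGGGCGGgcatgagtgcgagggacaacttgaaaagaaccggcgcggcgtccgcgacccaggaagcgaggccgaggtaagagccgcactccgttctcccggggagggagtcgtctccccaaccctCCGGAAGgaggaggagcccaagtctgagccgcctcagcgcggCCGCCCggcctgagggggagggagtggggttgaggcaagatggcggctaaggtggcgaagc

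All 10 members had an H3K27ac peak over a RefSeq start site in both groups, although the tables did not always name the member. By the same rule 46.9% of 21629 protein-coding genes did. This count by position was made after the files were seen, as was the choice to follow Kat2a by it. For Kat2a the start site lay in a peak named for Hspb9, a neighbour read from the other strand, in both tables. For Ncor1 the detrained peak was named for Pigl, which likewise starts next to it in the opposite direction, and the control peak was named for Ncor1. By the tables' own promoter annotation, which goes by the centre of a peak, 4 of the 10 members had a promoter peak in both tables. These were Ep300, Hdac1, Sirt1 and Sirt3. The same held for 22.2% of the 15642 genes named in either table. Crebbp, Hdac3 and Hdac2 each had a promoter row in 1 table, and the peak over the same start was annotated to an exon or intron in the other.

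Densities are given as tags per kb of peak per 10000000 tags of the library, which allows genes to be compared. Where a pair of values is given for a group, C2 comes before C3 and Ex1 before Ex2. The median promoter peak stood at 62.6 and 61.9 in control against 63.3 and 59.5 in detrained mice. In control mice the start peaks of the members were ordered Ncor1, Crebbp, Ep300, Hdac2, Sirt1, Kat2b, Sirt3, Hdac3, Hdac1 and Kat2a. The ranges of the 2 libraries overlapped between Crebbp and Ep300, between Ep300 and Hdac2, and between Hdac3 and Hdac1, so these neighbours were not separated. In detrained mice Crebbp stood between Sirt1 and Kat2b, and Ncor1, Ep300, Hdac2 and Sirt1 followed each other with overlapping ranges, as did Crebbp, Kat2b and Sirt3, and Hdac3 and Kat2a at the low end.

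**Figure D1:**
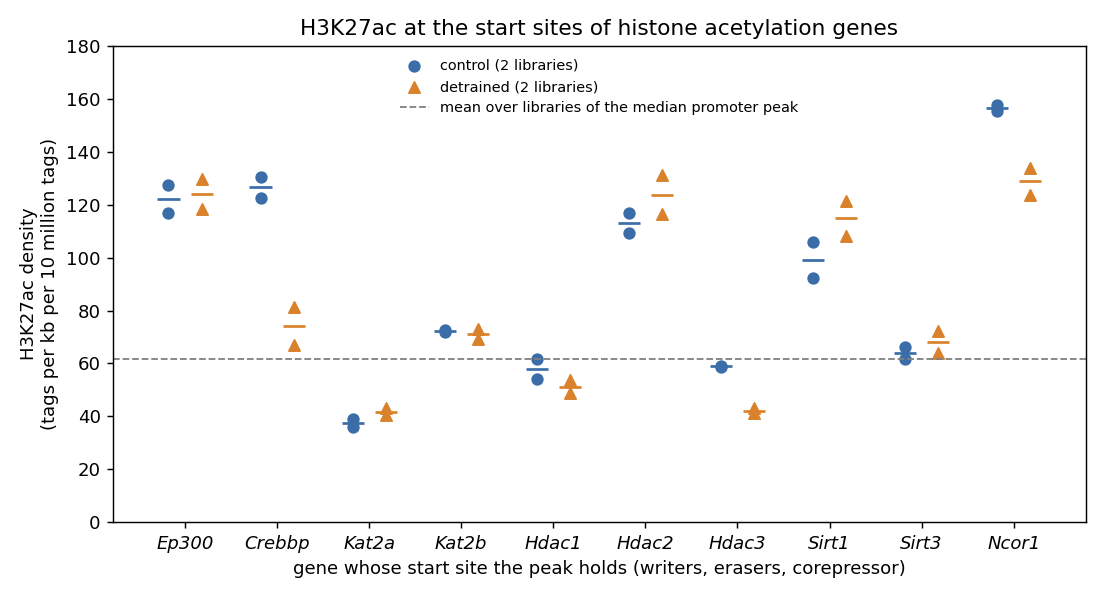
Density of H3K27ac (tags per kb of peak per 10000000 tags) in the peak that holds a start site of each member, in 2 control libraries (circles) and 2 detrained libraries (triangles), with group means as bars. Crebbp, Hdac3 and Ncor1 have both detrained points well below both control points, and Kat2a is lowest in control and lies beside Hdac3 in detrained mice.

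Among the writers, Ep300 had one of the strongest start peaks and, per kb, the least difference between groups of the 10 start peaks. Its peak, chr15:81584138-81588122 in control and chr15:81584376-81588130 in detrained mice, had a density of 116.8 and 127.4 in control against 129.7 and 118.4 in detrained mice. The groups overlapped, and the log2 ratio of detrained to control was 0.02, with a counting error of 0.045. It ranked above 95% of promoter peaks in each library. The only other Ep300 peak, 31.2 kb upstream at chr15:81554718-81555218, was listed in control mice only. It held 43.0 pooled tags (95% exact Poisson interval 31.1 to 57.9, counting error only), or densities of 24.9 and 14.8.

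Crebbp had the largest difference in density of the shared member peaks, and nearly the same number of tags. The control peak at the start, chr16:4212882-4214956, was 2074 bp long, and the detrained peak, chr16:4211416-4214990, was 3574 bp long, the added length lying inside the gene. The density was 122.7 and 130.5 in control against 81.2 and 66.9 in detrained mice. The libraries of the groups did not overlap, and the log2 ratio was -0.78, lower than all but 0.367% of shared peaks. The pooled tags of the peak were 262.2 per 10000000 in control and 263.5 in detrained mice, and the log2 ratio of tags per peak was 0.01. The density difference at Crebbp came with a longer called peak, and tags over an interval common to both groups were not counted. It ran from -0.92 to -0.64 when any 1 library was left out.

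The gene body of Crebbp, 132.6 kb long, held 4 intronic peaks in control and 2 in detrained mice. The densest distal peak of the control table, chr16:4204737-4205365, 8.35 kb into the gene, stood at 24.8 and 27.8. A wider one at chr16:4199049-4201245 held 187.0 pooled tags (exact Poisson interval 161.1 to 215.8) and stood at 16.0 and 22.8. Neither overlapped a detrained peak. In detrained mice the densest distal peak was chr16:4161149-4162041 at 21.8 and 24.8. It met the control peak chr16:4160035-4161856 by less than the overlap required for a pair, and that peak stood at 19.3 and 20.2.

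Kat2a and Kat2b, the paralogs with the least GC at their first starts, had start peaks of different strength. The peak over the Kat2a start, chr11:100711799-100714990 in control mice, had a density of 39.0 and 36.1 in control against 43.1 and 40.4 in detrained mice. Both detrained libraries were above both control libraries, with a log2 ratio of 0.15 and of 0.09 for tags per peak, for which the groups overlapped. Without C3 the log2 ratio per kb was 0.10. It ranked at percentiles from 19.2 to 23.6 of promoter peaks, the lowest of the 10 members by mean percentile. Since the Hspb9 start lies in the same peak, its tags cannot be divided between the 2 genes. The other peak touching the Kat2a body in each table was named for Dhx58, the next gene.

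The peak at the first Kat2b start, chr17:53565884-53570976 in control and chr17:53566462-53570936 in detrained mice, reached well into the first intron. Its density was 72.0 and 72.7 in control against 72.9 and 69.1 in detrained mice, with a log2 ratio of -0.03 and overlapping groups. Downstream of a second start inside the gene, the densest distal Kat2b peak, chr17:53585371-53589144 in control mice, stood at 36.4 and 39.3 in control against 40.4 and 35.7 in detrained mice. This pair overlapped between groups as well. Per peak, without the length, both were lower in detrained mice, by log2 ratios of -0.22 and -0.21, with both detrained libraries below both control libraries.

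Between these peaks the Kat2b lists differed. The control table held chr17:53576943-53581323, 4380 bp long with 449.9 pooled tags (exact Poisson interval 409.3 to 493.5), and chr17:53581998-53583356, with 175.0 pooled tags, and the detrained table held nothing that overlapped them. The first stood at 23.6 and 23, and at 1.90 and 1.87 above the input on the log2 scale of the table, where the start peak of the gene stood at 3.16 and 3.17. The detrained table in turn held chr17:53595598-53597343, 12.3 kb past the start used, at 28.5 and 33.3. Of the peaks touching the gene, 4 of 6 in control and 3 of 4 in detrained mice were named for Kat2b. A peak missing from a list is not a level of 0, because only enriched regions were listed.

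Among the class I deacetylases, the paralogs Hdac1 and Hdac2 differed in both strength and number of peaks. Hdac1 was named by 1 peak in each table, although in detrained mice a further peak, named otherwise, touched the gene. The named peak, over the start at chr4:129541889-129543563 in control mice, stood at 61.5 and 54.3 in control against 53.6 and 49.0 in detrained mice. The detrained libraries were the lower pair, by a log2 ratio of -0.17 against a counting error of 0.106, and C3 and Ex1 were close. Without C2 it was -0.08, without Ex2 -0.11 and without C3 -0.26. The groups overlapped when libraries were scaled to the tags in listed peaks, with a log2 ratio of -0.12, or centred on the median of all shared peaks. Without the length the log2 ratio was -0.35.

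Hdac2 had 10 peaks in control and 9 in detrained mice, the most of any member. Its start peak, chr10:36973905-36975924 in control mice, stood at 109.5 and 117.0 in control against 131.1 and 116.5 in detrained mice, with overlapping groups and a log2 ratio of 0.13. It ranked above 92.3% of promoter peaks in each library. That start peak was the only one to touch the 27.6 kb gene, and the others were assigned to it as the nearest start. The 4 most distant control peaks, 170.8 to 222.9 kb upstream, lay inside Hs3st5, a heparan sulfate sulfotransferase gene, and only 1 of them, 220.4 kb upstream, was matched in detrained mice.

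The densest distal peak of any member was one of these Hdac2 peaks, 75.8 kb upstream at chr10:36896904-36900667 in control and chr10:36895830-36900335 in detrained mice. It stood at 71.0 and 105.1 in control against 64.1 and 61.6 in detrained mice. Both detrained libraries were below both control libraries, with a log2 ratio of -0.46, but the 2 control libraries were further apart than C2 was from either detrained library. Without C3 the log2 ratio was -0.18, and without C2 it was -0.74. For tags per peak the groups overlapped, with a log2 ratio of -0.20.

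This peak had little CpG, with an observed over expected value of 0.191 and 42.2% GC. The central 300 bases of the control peak hold a match to the ERR letters TCAAGGTCA, which were in 0.862% of the central 300 bases of all 46988 control peaks, and 1 match to the SP1 letters, which were in 15.6%. The whole peak held 2 matches to the ERR letters, 6 to the NFY letters and 1 each to the SP1, ETS and AP-1 letters. Shares over whole peaks were not computed, and these are matches of letters and not tested sites. The central bases are printed on the plus strand of mm10, with matches in capitals.
Hdac2 upstream peak, chr10:36898636-36898935: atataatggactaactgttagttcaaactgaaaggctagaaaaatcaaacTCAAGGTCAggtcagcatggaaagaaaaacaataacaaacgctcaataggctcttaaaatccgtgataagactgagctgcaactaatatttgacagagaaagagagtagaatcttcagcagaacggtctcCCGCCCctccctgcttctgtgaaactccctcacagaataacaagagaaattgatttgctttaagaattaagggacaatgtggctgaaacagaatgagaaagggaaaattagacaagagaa

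Downstream of Hdac2, the peak 73.6 kb away, chr10:37045516-37050776 in control mice, had the largest increase in density of the shared member peaks. It stood at 39.0 and 43.6 in control against 51.4 and 45.8 in detrained mice, the detrained libraries both being higher, with a log2 ratio of 0.23, or 0.15 without C2 or without Ex1. The detrained peak was shorter, 4355 against 5260 bp, and the tags per peak overlapped between groups, with a log2 ratio of -0.04. The remaining shared Hdac2 peaks, 60.7 kb downstream and 220.4 kb upstream, had log2 ratios of -0.07 and -0.38, and both overlapped between groups. The 220.4 kb peak stood at 26.0 and 39.3 in control against 22.7 and 26.6 in detrained mice, and was the shared member peak whose control libraries differed most.

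Hdac3 had the second largest decrease in density, again with a longer peak. The start peak, chr18:37954231-37955368 in control and chr18:37953533-37955360 in detrained mice, stood at 59.0 and 58.7 in control against 41.2 and 43.1 in detrained mice. The groups did not overlap and the log2 ratio was -0.48, while the peak grew from 1137 bp in control to 1827 bp in detrained mice. For tags per peak the direction was opposite, the detrained libraries both being higher, with a log2 ratio of 0.20, against a counting error of 0.115. Inside the gene a control peak 5.83 kb past the start stood at 21.5 and 25.1, and a detrained peak 9.32 kb past it stood at 16.6 and 19.1. These did not overlap.

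Among the sirtuins, the Sirt1 start peak, chr10:63337798-63340429 in control mice, stood at 92.3 and 105.9 in control against 121.5 and 108.1 in detrained mice. The detrained pair was higher, C3 and Ex2 being close, and the log2 ratio was 0.21. It was 0.11 without C2, 0.13 without Ex1 and 0.31 without C3. The detrained peak was shorter, 2071 against 2631 bp, and the tags per peak went the other way, with a log2 ratio of -0.13 and overlapping groups. Its window, printed above, had the highest CpG value of the members, 1.09. The other Sirt1 row, chr10:63301493-63303437 in control mice only, lay inside Herc4, 36.6 kb from the Sirt1 start, at 21 and 26.5.

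Sirt3 had 1 peak in each table, chr7:140879892-140883119 in control mice, which covered both RefSeq starts of the gene. It stood at 66.4 and 61.7 in control against 72.4 and 63.8 in detrained mice, close to the median promoter peak. The groups overlapped, and the log2 ratio was 0.09.

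Ncor1 had the densest start peak of the members in control mice. At chr11:62456133-62459183 it stood at 157.5 and 155.5, at percentiles of 99.7 and 98.8 among promoter peaks. The detrained peak over the same start, chr11:62456406-62459667, stood at 134.1 and 123.7, at percentiles of 96.8 and 96.9. Both detrained libraries were below both control libraries, with a log2 ratio of -0.28 and a counting error of 0.046, and the difference in tags per peak, -0.19, had the same order of libraries. This peak covers the starts of Ncor1 and Pigl, and its tags cannot be divided between them. Of the members, Hdac1 and Ncor1 were the ones lower in detrained mice both per kb and per peak with the libraries apart, for Hdac1 under scaling to total tags alone. Inside the 141.8 kb gene only the control table named further peaks, at chr11:62446020-62446961 with 23.3 and 26.4, and at chr11:62376841-62377472 with 10.5 and 11.7. The latter held 30.0 pooled tags (exact Poisson interval 20.2 to 42.8).

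Over all members, 14 one-to-one pairs of control and detrained peaks covered each other by 50% or more, 9 at start sites and 5 distal, the Ncor1 pair among them through its control row. Their log2 ratios ran from -0.78 to 0.23 with a median of -0.05, beside a median of -0.03 over all 26432 shared peaks. Both detrained libraries were above both control libraries in 2 of 14, where 21.3% of all shared peaks were. They were below in 5 of 14, or 35.7%, where 27.2% of all shared peaks were, and the groups overlapped in the other 7. Leaving out a library leaves fewer values to overlap, at any peak. Without Ex2, 7 of 14 were higher and 7 lower, where 37.2% and 35.9% of all shared peaks were, and without C3, 4 were higher and 6 lower, where 38.7% and 36.9% were. Without C2, 3 were higher and 6 lower, where 30.5% and 45.5% were, and without Ex1, 2 were higher and 7 lower, where 28.8% and 43.4% were. Scaled to the tags in listed peaks in place of total tags, 4 of 14 were higher, where 27.8% of all shared peaks were, and 4 were lower, where 22% were. The Ep300 start and the Hdac2 start then joined the higher ones, and Hdac1 left the lower ones. None of the 14 was at least 2-fold apart with the libraries apart, a call met by 0.0757% of all shared peaks. With 2 libraries against 2, an exact two-sided permutation test could not give a p below 0.333, and each table was normalized on its own, so no test between the groups was made.

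The length of the called peaks moved the direction of many of these ratios. Without the length, 3 of the 14 log2 ratios were above 0 and 11 below, with a median of -0.11, beside a median of -0.02 over all shared peaks. Then 1 peak, at Hdac3, had both detrained libraries above both control libraries, and 4 had both below, at Hdac1, Ncor1 and the 2 Kat2b peaks. Over all shared peaks these calls were met by 24.7% and 28.8%. The 3 largest decreases per kb, at Crebbp, Hdac3 and the upstream Hdac2 peak, and the 3 largest increases, at the downstream Hdac2 peak, Sirt1 and the Hdac2 start, all came with a change of length in the opposite direction to the change of density.

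**Figure D2:**
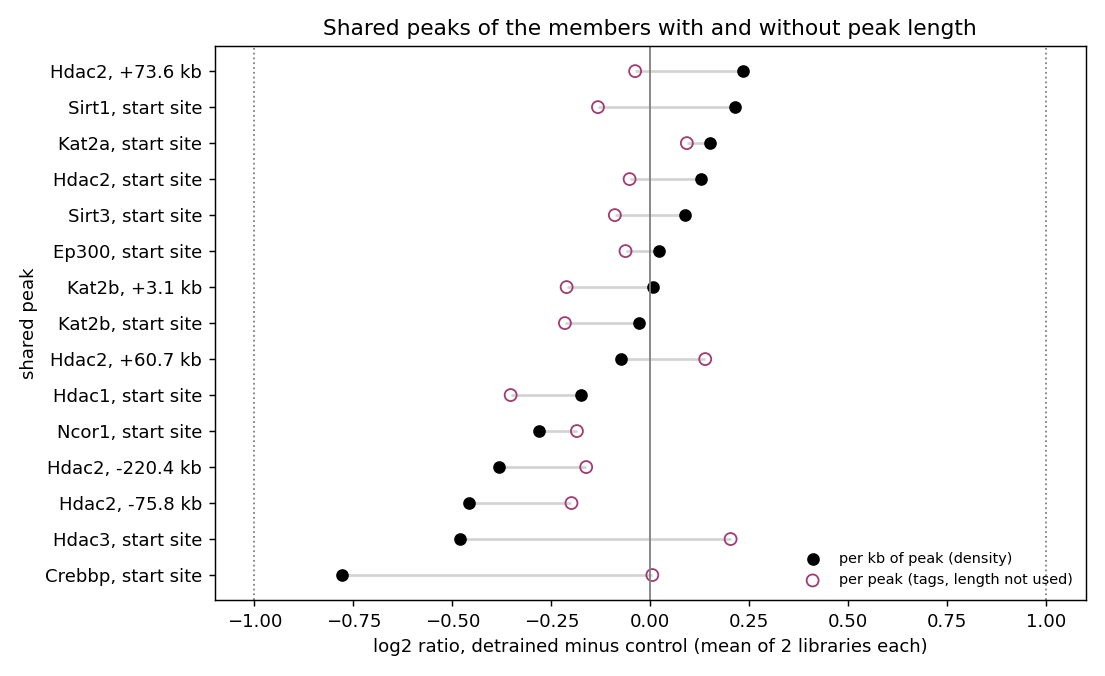
Log2 ratio of detrained to control for the 14 shared member peaks and the Kat2a start peak, per kb of peak (filled) and per peak (open), with dotted lines at a 2-fold difference; distal peaks carry their distance from the start. Crebbp moves from -0.78 to 0.01 and Hdac3 from -0.48 to 0.20 when the length is not used, and no point passes the dotted lines.

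An overlap of 1 bp or more with the other table was found for 17 of the 30 control peaks (56.7%), where the share over the whole control table was 72.1%. It was found for 16 of the 21 detrained peaks (76.2%), where the share over the whole detrained table was 82%. The 13 control peaks without an overlap had a median of 21 pooled tags per 10000000, against 206.6 for those with one, and all but the 101.8 of the Kat2b intron peak lay at or below 55.4. Over the whole control table these medians were 14.5 and 74. The 5 unmatched detrained peaks held 13.7 to 53.8 pooled tags per 10000000. Promoter rows made up 23.3% of the control and 23.8% of the detrained member peaks, against 11.2% and 12.6% of all peaks.

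**Figure D3:**
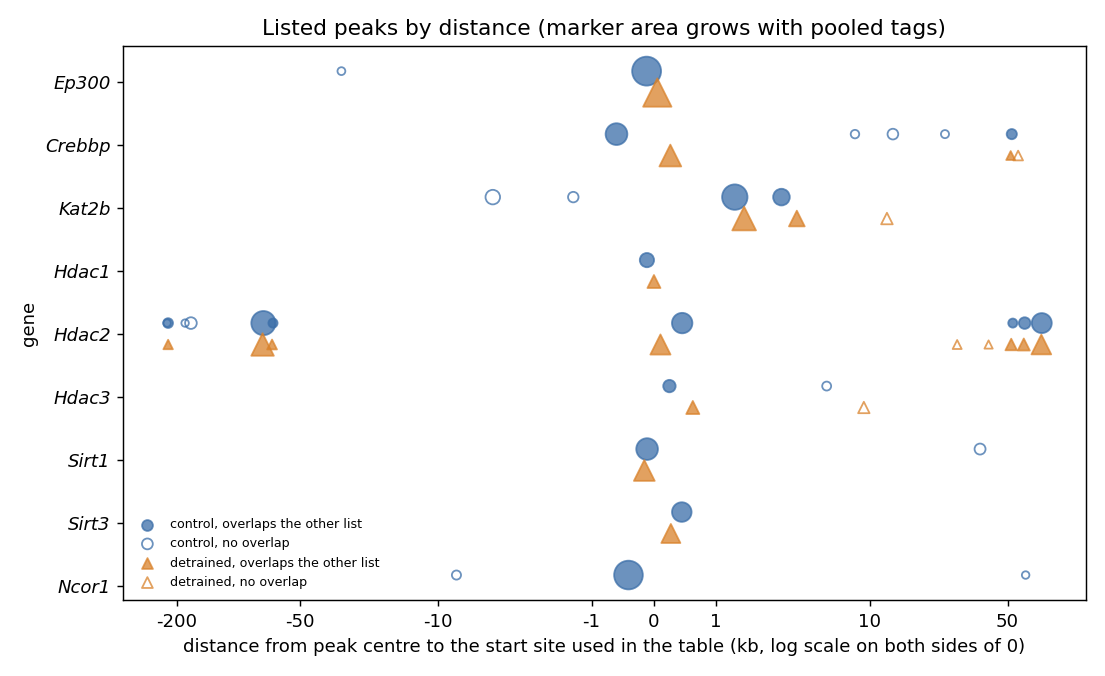
Distance from the centre of each listed member peak to the start site used in the table (kb, log scale on both sides of 0) in control (circles) and detrained mice (triangles), with open markers for peaks that do not overlap the other table and marker area growing with pooled tags. The large markers lie at the start sites, apart from those of Hdac2 and Kat2b, and the open markers are small except that of the Kat2b intron peak with 101.8 tags per 10000000; Ncor1 has no detrained marker because its start peak is named for Pigl there.

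CpG content separated the control start peaks of the members from the distal ones, while GC share did not. The Sirt3 start peak was 46.3% GC and the distal Ep300 peak was 53.1%. The 9 control member peaks over a start had observed over expected CpG from 0.505 to 0.951, and the 21 others from 0.0296 to 0.369. Over all control peaks the medians were 0.592 for 10776 peaks over a start and 0.207 for the others. The distal member peaks had a median of 0.180 and 40.6% GC.

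Tags summed over all rows of a gene do not need matched peaks, but they move with how much was listed. For Kat2b they were 648.4 and 656.6 per 10000000 in control against 506.3 and 482.6 in detrained mice, over 14.6 kb of control and 9.46 kb of detrained peaks. The log2 ratio was -0.40, and -0.21 when only peaks that overlapped the other table were summed. For Sirt1 the sums were 283.4 and 329.9 against 251.6 and 223.9, a log2 ratio of -0.37. Without the unmatched row it was -0.13, and the groups overlapped. Hdac3 went the other way, with 86.5 and 89.4 against 123.2 and 134.0 and a log2 ratio of 0.55 over 2.05 kb of control and 4.73 kb of detrained peaks, or 0.20 over matched rows. For Crebbp the log2 ratio was -0.23, -0.14 without Ex2, and -0.07 over matched rows. The tags of the Crebbp start peak alone overlapped between groups. Hdac2, with the most peaks, had 881.9 and 1070 against 953.9 and 892.4, which overlapped. Of the 8 members with rows in both tables the sums of the groups were apart for Crebbp, Kat2b, Hdac1 and Sirt1, all lower in detrained mice, and for Hdac3, higher. Over the 13524 genes with rows in both tables, the sums were lower in both detrained libraries for 35.2% and higher for 24.3%. With tags in listed peaks as the scale these 5 remained apart in the same direction and Ep300 joined the lower ones, with a log2 ratio of -0.04. On that scale the shares over all these genes were 30% lower and 31.1% higher.

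**Figure D4:**
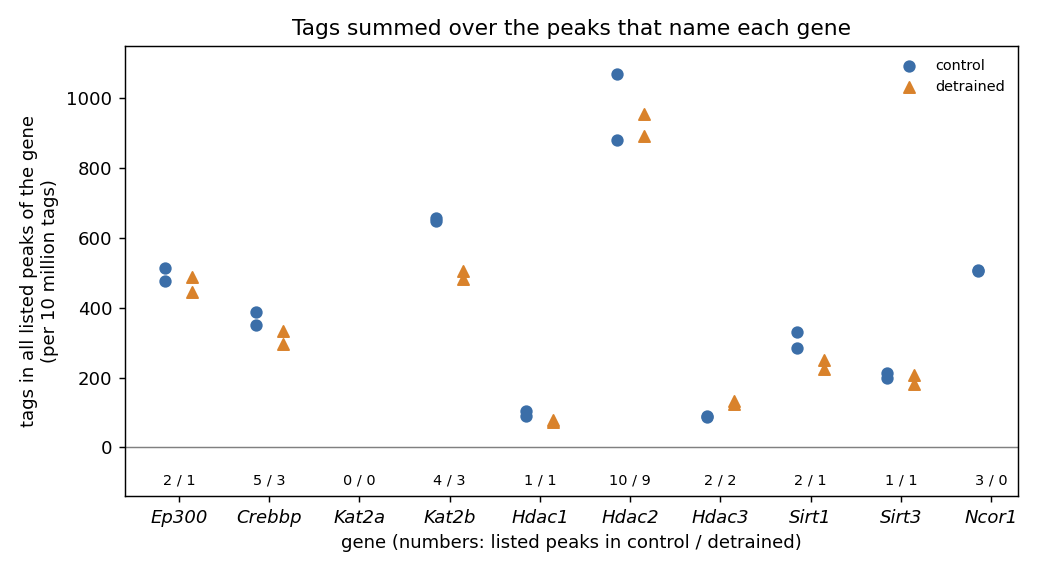
Tags per 10000000 summed over all peaks that name each member, by library, in control (circles) and detrained mice (triangles), with the number of listed peaks in control and detrained mice under each gene. Kat2b, Sirt1, Crebbp and Hdac1 sit lower and Hdac3 higher in both detrained libraries, while Ncor1 and Kat2a lack points where no row carries their name.

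The other genes of histone acetylation were counted in the same way. Of 51 such genes, 46 had a peak in both tables, as did 86.5% of all genes named in either table, 3 had none, and 19 had a promoter peak in both, which 22.2% of all genes named in either table had. Of their 112 shared peaks 26 (23.2%) had both detrained libraries above both control libraries and 34 (30.4%) had both below, with a median log2 ratio of -0.05 and none at least 2-fold apart. Over all shared peaks 21.3% were higher and 27.2% lower, with a median of -0.03, and the counts of the smaller lists are to be read against these shares. The 11 further acetyltransferase genes had 5 higher and 7 lower of 26, and the 8 further zinc-dependent deacetylase genes had 4 higher and 6 lower of 18. The 5 further sirtuin genes had 1 higher and 4 lower of 6, and the 17 corepressor subunit genes had 10 higher and 12 lower of 46. The genes that supply acetyl-CoA and NAD had 5 higher and 4 lower of 12.

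The ends of this range lay in the supply of acetyl groups. The largest increase per kb was at Crat, which encodes the carnitine acetyltransferase of mitochondria, in an intronic peak that stood at 33.6 and 40.0 in control against 59.0 and 57.9 in detrained mice. Its log2 ratio was 0.67, and 1.17 for tags per peak, with a detrained peak of 9675 bp against 6880 bp. The largest decrease was at the promoter of Slc25a1, the mitochondrial citrate carrier, at 61.5 and 49.6 in control against 34.7 and 31.3 in detrained mice. Its log2 ratio was -0.75, and -0.31 for tags per peak. Both genes had the 2 groups apart per kb and were named for being the extremes of this list.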

How the data were processed

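Quadriceps H3K27ac ChIP-seq of control and detrained mice was used, 2 libraries and 1 input per group. Per the labels and the study's methods, reads were aligned by the authors to mm10 using Bowtie (version 1.2 in the labels) and 1 peak list per group was called with HOMER on both libraries against that group's input, at an adjusted p-value below 0.05. The deposited signal is the pooled tags of both libraries per 10000000 tags, and the deposited log2 values per library were normalized to total tags and shrunken within each table by the authors. The deposited log2 fold and p-value columns over input only served a stricter peak filter.

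The pooled tags were split into 1 value per library from the library totals and log2 values, 0.5 tags were added, and densities per kb were computed with Python 3.11.15, numpy 2.4.6, pandas 2.3.3 and scipy 1.17.1. Because of the shrinkage, replicate spread is understated at weak peaks. Tags stand for reads and not for molecules, so Poisson intervals and counting errors cover counting error only. The scripts were tested on simulated data. No column of another series was present. Each gene is described by its start peak and densest distal peak, by the 3 largest ratios in each direction, and by the extremes of a list of related genes. The members and lists were chosen with earlier results of these data known. Protein identity of the paralogs was planned and not run, because no protein sequences were used here. Values of some genes of the lists are not reported here.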

Additional observations from a re-analysis of the deposited data

How the results depend on the processing

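No paired analysis was possible because C2 and C3 carry no replicate number of the labels. Under stricter peaks, at least 4-fold over input with an adjusted p below 0.001, 15 control member peaks were left in place of 30, while 15 of the 21 detrained ones were. The shares of all peaks left were not computed, so these counts are not read as a trait of the members. Over all peaks the median log2 fold over input was 2.63 in control and 2.43 in detrained mice. Members with a promoter peak in both tables numbered 4, 8 with the start inside the peak, 7 with the centre within 1 kb, and 10 by RefSeq starts whatever gene was named, an alternative chosen after seeing the data. With at least 80% of each peak covered, 7 pairs were left, 1 higher and 2 lower, and the shares over all such pairs were not computed. With any one-to-one overlap 4 of 17 were higher and 5 lower, where 21.9% and 27.1% of all such pairs were, and the median log2 ratio was 0.01. Scaled to the tags in listed peaks 4 of 14 were higher and 4 lower, and without peak length 1 was higher and 4 lower. Leaving out 1 library at a time gave 2 to 7 higher, the most without Ex2 and 4 without C3, 6 to 7 lower, and a median log2 ratio from -0.07 to -0.04, while the shares over all shared peaks ran from 28.8% to 38.7% higher and from 35.9% to 45.5% lower. The median promoter rank of the members was 71.4, 81.8 without length, 74.2 against peaks over a start, and 67.2 under stricter peaks. No alternative run gave a member peak at least 2-fold apart with the libraries apart. Of 156 recomputed log2 ratios of single peaks 18 changed sign. Without length, 1 shared peak of the related genes was at least 2-fold apart. Depth limits weak peaks most, down to 27 pooled tags.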
